A study of Mus musculus with 6 samples.

Results

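The granins and the enzymes that process neuropeptide precursors were followed through single-cell RNA sequencing libraries of mouse autonomic ganglia. The set holds 10 genes of the 32285 in the count tables, matched by symbol, and all 10 had counts in each of the 6 libraries. It comprises the granins Chga, Chgb, Scg2, Scg3, Scg5 and Vgf, the convertases Pcsk1 and Pcsk2, the convertase inhibitor Pcsk1n and the carboxypeptidase Cpe. The ganglia came from pups of both sexes at postnatal day 5, and how many pups went into a library is not given in the sources used here. They were 3 sympathetic ganglia (stellate, coeliac and lumbar), 1 parasympathetic ganglion (sphenopalatine) and the pelvic ganglion, with 1 library for each but the pelvic ganglion, which had 2 (pelvic 1 and pelvic 2). Every library was from untreated mice that carry a Cre transgene and a Cre-dependent tdTomato at the Rosa locus, so no group lacked either allele. Ganglia were pooled in suspension, no sort on tdTomato is stated, and the libraries hold neurons together with glial, fibroblast, vascular and immune cells. The libraries were made in 2 rounds that differed in reagent version, sequencer and site. Stellate, sphenopalatine and pelvic 1 were in round 1, and coeliac, lumbar and pelvic 2 in round 2.

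Peptide hormones and neuropeptides are made as long precursors that travel through the Golgi into dense-core vesicles, where they are cut and trimmed before release. Granins are acidic proteins of those vesicles that help to load them, and several granins are themselves cut into active peptides. Pcsk1 and Pcsk2 encode the prohormone convertases PC1/3 and PC2, which cut after pairs of basic residues, and Cpe encodes carboxypeptidase E, which then removes those residues. Scg5 encodes 7B2, the chaperone that PC2 needs to become active, and Pcsk1n encodes proSAAS, an inhibitor of PC1/3. In autonomic neurons the vesicles carry peptides such as neuropeptide Y beside noradrenaline, or vasoactive intestinal peptide beside acetylcholine.

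The 10 genes are protein coding and lie apart from one another, at these positions of GRCm38 in the GENCODE annotation. Chga is at chr12:102554969-102565028 on the plus strand, Chgb at chr2:132781278-132795079 on the plus strand, and Scg2 at chr1:79434669-79440120 on the minus strand. Scg3 is at chr9:75643189-75684056 and Scg5 at chr2:113776362-113829121, both on the minus strand. Vgf is at chr5:137026392-137033351, Pcsk1 at chr13:75089826-75134861 and Pcsk2 at chr2:143546156-143816285, all on the plus strand. Pcsk1n is at chrX:7919822-7924410 on the plus strand and Cpe at chr8:64592542-64693054 on the minus strand.

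Many granin promoters are known for a cyclic AMP response element, the palindrome TGACGTCA that CREB binds, or for its half-site TGACG. Both were searched on both strands in the 250 bases before the transcript start in RefSeq's promoters on GRCm38.p6, where 8 of the 10 genes had an entry and Vgf and Cpe had none. The full element was present in 3 of the 8 (Chgb, Scg2 and Pcsk1), and it stood in 508 of 32851 promoter windows of the same length (1.55%). A half-site without a full element was present in 4 others, Chga, Scg3, Scg5 and Pcsk2, and a half-site of any kind, each full element counting as one on either strand, stood in 17.8% of all windows. Pcsk1n had neither. Windows of 30 bases around the element are given for the genes whose levels differed most between neuron classes, followed by Chga, and read from 5′ to 3′ on the gene's strand with the matching bases in capitals.
Scg2, chr1:79440076-79440105, minus strand, full element ending 60 bases before the start: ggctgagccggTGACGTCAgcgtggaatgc
Chgb, chr2:132781559-132781588, plus strand, full element ending 64 bases before the start: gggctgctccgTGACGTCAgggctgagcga
Pcsk1, chr13:75089768-75089797, plus strand, full element ending 70 bases before the start: ccaggtagatcTGACGTCAagagatggctt
Pcsk2, chr2:143546086-143546115, plus strand, half-site on the opposite strand ending 29 bases before the start: gctggcgggcgcgCGTCAcccgggctggcg
Chga, chr12:102554884-102554913, plus strand, half-site ending 39 bases before the start: gggggcggtcctaTGACGtaatttcctggg
The Scg2 and Chgb windows overlap a noncoding part of a GENCODE exon of the same gene, and the other 3 overlap no annotated exon of their own gene. Exons of other genes were not searched. The genes that hold the full element did not share a pattern across neurons, as the values that follow show, and a match is a description of letters, not of binding.

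After the study's filter on droplets, 1427 (coeliac) to 7219 (stellate) cells were kept per library, 21442 in all, from total counts of 39353313 to 113352559 unique molecular identifiers (UMIs). Of these, 7053 were neurons (237 to 2725 per library) and 8469 were glial cells. Levels are CPM, the UMIs summed over the cells of a class in a library and scaled to a common total. Neurons with more Th than the cholinergic genes Chat, Slc18a3 and Slc5a7 are called noradrenergic and the reverse cholinergic, and no gene of the set took part in that choice. In noradrenergic neurons Th stood at 489.2 to 1021 CPM in the 5 libraries that had them, against 0.54 to 5.43 CPM in the cholinergic neurons of 4 of 5 libraries. The exception was the stellate library, whose 20 cholinergic neurons held Th at 128.7 CPM and Dbh at 1037 CPM. Between any pair of libraries 0 to 94 cell barcodes were shared, at most 1.66% of the smaller library, and leaving out those shared within a round changed 1 call among all comparisons, given where it arises. Intervals from counts cover counting error only.

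All 10 genes were detected in the neurons of every ganglion, and none was restricted to a sympathetic, parasympathetic or pelvic library. Since each ganglion but the pelvic one is 1 library, levels between ganglia carry no test. They also pool noradrenergic and cholinergic neurons, whose shares differed, with 48 cholinergic of 930 neurons in lumbar and 332 of 368 in pelvic 2. For several genes the 2 pelvic libraries differed about as much as different ganglia, so levels are read within a round. The ratio of pelvic 2 to pelvic 1 ran from 0.561 for Scg5 and 0.606 for Pcsk1n to 2.06 for Chgb and 2.12 for Scg2. Scg5 shows this most plainly, and its round cannot be told apart from its ganglion outside the pelvic pair. Its neuronal level was 729.2 CPM in stellate, 897.6 in sphenopalatine and 623.5 in pelvic 1, and 293.8 in coeliac, 303.9 in lumbar and 349.8 in pelvic 2. The 3 libraries of round 1 all lay above the 3 of round 2.

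Chga and Chgb, the chromogranins, and Scg3 were lowest in the pelvic library of each round. Chga stood at 133.7 CPM in stellate, 96.7 in sphenopalatine and 66.1 in pelvic 1, and at 222.4 in coeliac, 258.9 in lumbar and 114.4 in pelvic 2 (pelvic mean 90.3 ± 34.2 SD, n = 2). Pelvic neurons were the lowest in each round, by 2.02-fold below stellate and 2.26-fold below lumbar. Chgb gave 310.2, 301.7 and 215.1 CPM for stellate, sphenopalatine and pelvic 1, and 654.2, 573.0 and 443.1 for coeliac, lumbar and pelvic 2 (pelvic mean 329.1 ± 161.2 SD, n = 2). The span within a round was 1.44-fold and 1.48-fold, less than the 2.06-fold gap between the pelvic libraries.

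Scg2, the precursor of secretoneurin, was the member with the widest range within a round. Its level was 138.5 CPM in stellate, 320.6 in sphenopalatine and 82.4 in pelvic 1, and 196.7 in coeliac, 150.2 in lumbar and 174.4 in pelvic 2. Sphenopalatine neurons were 3.89-fold above pelvic 1, whereas the libraries of round 2 lay within 1.31-fold. Scg3 gave 109.7, 91.3 and 80.8 CPM in stellate, sphenopalatine and pelvic 1, and 193.6, 163.9 and 120.7 in coeliac, lumbar and pelvic 2, a span of 1.36-fold in round 1 and 1.60-fold in round 2. Vgf, which encodes a precursor of several secreted peptides, stood at 72.4, 94.0 and 78.3 CPM in round 1 and at 84.1, 56.7 and 114.0 in round 2, in the same order of ganglia. The pelvic library was the highest of round 2 but the middle one of round 1.

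Among the enzymes, the highest Pcsk1 and Pcsk2 of each round lay in a sympathetic library when the classes were pooled. Pcsk1 gave 35.3 CPM in stellate, 19.2 in sphenopalatine and 21.2 in pelvic 1. In round 2 it gave 39.3 in coeliac, 26.4 in lumbar and 28.1 in pelvic 2, so that the sympathetic lumbar library was the lowest. That order changed with each neuron thinned to 4000 UMIs, at 23.7 CPM in coeliac, 26.2 in lumbar and 23.4 in pelvic 2. For Pcsk2 the values were 26.2, 18.7 and 25.6 CPM in round 1 and 53.1, 67.1 and 46.7 in round 2. The stellate and pelvic 1 values of Pcsk2 differed little beside the 1.82-fold gap between the pelvic libraries. Noradrenergic neurons alone had more Pcsk2 in pelvic 1 (105.3 CPM) than in stellate (26.4), and in pelvic 2 (230.9) than in lumbar (66.7). Cholinergic neurons had 12.6 against 13.5 and 25.9 against 55.4 in the same pairs. For Pcsk1 the noradrenergic values were 30.7 against 34.5 and 63.2 against 25.6 CPM, and the cholinergic ones 19.7 against 117.7 and 24.2 against 48.0. Pcsk1n, the inhibitor, was lowest in sympathetic neurons, with 1989 CPM in stellate, 3054 in sphenopalatine and 3464 in pelvic 1, and 1786 in coeliac, 1734 in lumbar and 2099 in pelvic 2. Pelvic neurons were the highest of each round, by 1.74-fold over stellate and 1.21-fold over lumbar. Within a class this order held in round 1 but not in round 2. Noradrenergic neurons had 2478 CPM in pelvic 1 against 1982 in stellate, and 1609 in pelvic 2 against 1688 in lumbar. Cholinergic neurons had 3619 in pelvic 1 against 2738 in stellate, and 2154 in pelvic 2 against 2722 in lumbar. Cpe was the most even, within 1.10-fold in round 1 (448.4, 407.9 and 419.8 CPM) and 1.16-fold in round 2 (290.8, 310.6 and 337.1 CPM).

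**Figure D1:**
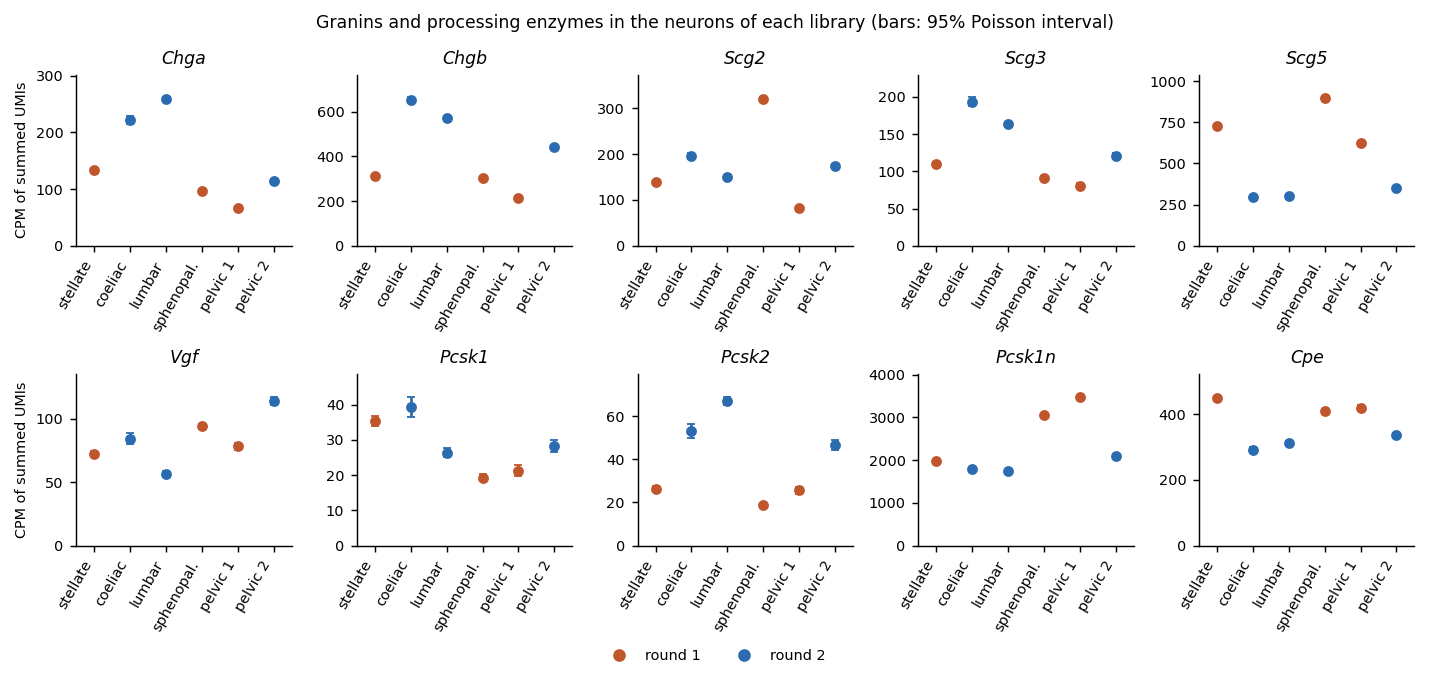
CPM of summed UMIs in the neurons of each library, with 1 panel per gene, colour for the round and bars for the 95% Poisson interval. Scg5 is higher in all 3 libraries of round 1 than in all 3 of round 2, while Chga is lowest in the pelvic library of each round.

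Within the pelvic ganglion, noradrenergic neurons held far more Scg2 and Pcsk2 and less Chgb than cholinergic neurons of the same suspension. The classes were compared over 4 sums, noradrenergic and cholinergic in each pelvic library, with the library as a replicate block. There were 113 and 32 noradrenergic neurons and 757 and 332 cholinergic neurons in pelvic 1 and pelvic 2. Of the 10 genes, 8 passed an adjusted p under 0.05 in edgeR's quasi-likelihood test with Benjamini-Hochberg adjustment, 4 higher and 4 lower in noradrenergic neurons, where 20.8% of the 14146 genes tested passed, 9.27% higher and 11.5% lower. The median log2 difference of the 10 was -0.23, against 0.00 over all genes tested.

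Pcsk2 and Scg2 had the largest differences. Pcsk2 was at 105.3 CPM in noradrenergic and 12.6 in cholinergic neurons of pelvic 1, and at 230.9 and 25.9 in pelvic 2. Both noradrenergic values lay above both cholinergic ones, with a log2 difference of 3.09 (SE 0.16, edgeR's quasi-likelihood test with Benjamini-Hochberg adjusted p = 1.83e-80). Scg2 was at 336.1 against 43.2 CPM in pelvic 1 and at 806.7 against 103.2 in pelvic 2. The classes again did not overlap, and the log2 difference was 2.94 (SE 0.16, edgeR's quasi-likelihood test with Benjamini-Hochberg adjusted p = 2.35e-68). With each neuron thinned to 4000 UMIs, Scg2 was found in 61.1% of 113 noradrenergic neurons (95% Wilson interval 51.8 to 69.5) and in 17.6% of 756 cholinergic neurons (15.0 to 20.5) of pelvic 1, against 93.8% and 63.9% before thinning. In pelvic 2 the thinned shares were 68.8% of 32 (51.4 to 82.0) and 33.1% of 317 (28.2 to 38.5), against 100.0% and 85.8% before.

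Pcsk1, the other convertase, and Scg3 were also higher in noradrenergic neurons, by less. Pcsk1 stood at 30.7 against 19.7 CPM in pelvic 1 and at 63.2 against 24.2 in pelvic 2, a log2 difference of 1.01 (SE 0.16, edgeR's quasi-likelihood test with Benjamini-Hochberg adjusted p = 1.09e-08). Scg3 was at 108.8 against 76.2 CPM and at 172.8 against 114.8 CPM, a log2 difference of 0.53 (SE 0.15, adjusted p = 0.00246 in the same edgeR test). For Scg3 the noradrenergic value of pelvic 1 lay below the cholinergic value of pelvic 2, so the difference shows within a library and not across the pair.

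Chgb led the genes lower in noradrenergic neurons. It stood at 86.4 CPM against 236.8 in cholinergic neurons of pelvic 1, and at 186.6 against 472.1 in pelvic 2. Both noradrenergic values lay below both cholinergic ones, with a log2 difference of -1.42 (SE 0.16, edgeR's quasi-likelihood test with Benjamini-Hochberg adjusted p = 1.60e-17). Cpe (log2 difference -0.55, SE 0.16), Pcsk1n (-0.50, SE 0.18) and Scg5 (-0.41, SE 0.16) were lower by less, with adjusted p of 0.0031, 0.0308 and 0.0439 in the same edgeR test. With cells thinned to 1 depth, Scg5 and Cpe no longer passed. Chga, at 59.4 against 67.3 CPM and 86.4 against 117.7 CPM, did not pass (log2 difference -0.34, SE 0.15, edgeR adjusted p = 0.111). Vgf, at 81.4 against 78.4 CPM and 97.6 against 115.9 CPM, did not pass either (-0.12, SE 0.15, edgeR adjusted p = 0.690), and its direction differed between the libraries.

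These fits leave 1 residual degree of freedom and edgeR set the prior degrees of freedom to infinity, so a gene's own spread carried no weight and the p-values rest on the spread of the whole table. Without the replicate block, 2 of the 10 genes passed, Scg2 and Pcsk2, where 631 of the 14146 genes tested passed.

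**Figure D2:**
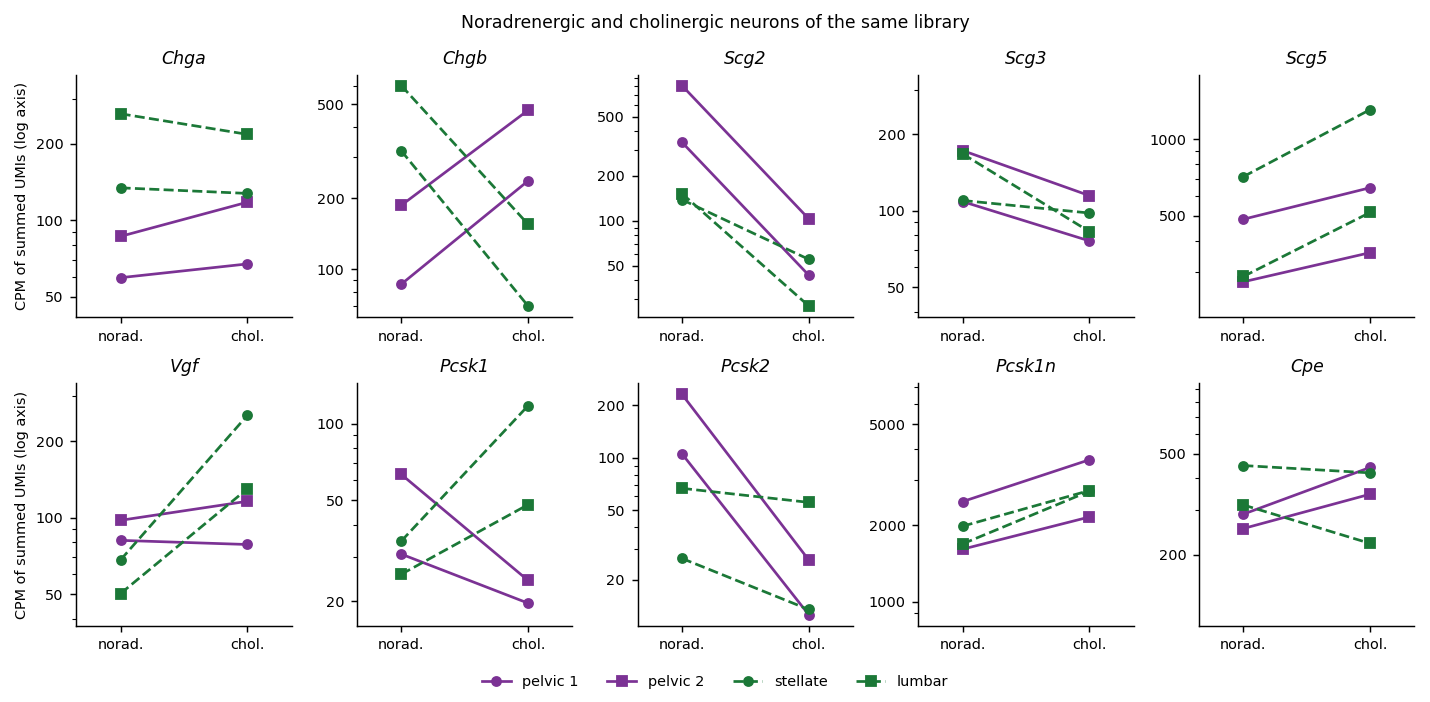
CPM on a log axis in noradrenergic and cholinergic neurons of 4 libraries, with a line joining the classes of 1 library (solid for pelvic, dashed for stellate and lumbar). The Chgb lines cross, being higher in cholinergic neurons of both pelvic libraries and higher in noradrenergic neurons of stellate and lumbar.

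The 1260 pelvic neurons were also clustered without the 10 genes, which gave 6 clusters, where the study describes fewer classes, named P1 to P4. With the marker genes of those classes, which the study chose on these libraries, 3 clusters could be named. They were P1-like (324 neurons), P2-like (347) and P3-like (164, the cluster with Th, Dbh and Slc6a2). The others are called by leading genes. They were a Penk Gng8 cluster (227), a Calca Aldh1a2 cluster (107) and an Apoe Sostdc1 cluster (91). In the Calca Aldh1a2 cluster the fibroblast genes Col1a1 and Dcn also led. All 5 markers of P4 were raised in it, against 3 of 5 markers of P1 in the P1-like cluster. It was given no P4 name because more fibroblast genes than P4 markers were among its 10 leading genes. Values are descriptions, with pelvic 1 first and pelvic 2 second.

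Scg2, Scg3 and both convertases were highest in the P3-like neurons, and Chgb and Vgf in another cluster. Scg2 stood in the P3-like neurons at 313.2 and 803.0 CPM, and next in the P1-like neurons at 76.9 and 180.2 CPM. The other 4 clusters held 27.6 to 96.3 CPM of Scg2 over both libraries. Scg3 stood in the P3-like neurons at 108.9 and 172.9 CPM and elsewhere at 71.8 to 127.9 CPM. Pcsk2 was likewise highest in the P3-like neurons, at 103.5 and 230.1 CPM, and lowest in the Penk Gng8 cluster, at 4.61 and 7.76 CPM. The Penk Gng8 cluster, whose leading gene encodes the enkephalin precursor, had in turn the most Chgb and Vgf. Chgb stood there at 414.2 and 714.2 CPM, followed by the Calca Aldh1a2 cluster at 252.9 and 443.4 CPM and ending with the P3-like neurons at 88.2 and 186.2 CPM. For Vgf the Penk Gng8 cluster gave 148.9 and 223.0 CPM, against 77.0 and 103.0 in the P1-like and 78.8 and 96.9 in the P3-like neurons. The remaining 3 clusters held 41.6 to 51.5 CPM of Vgf. The Penk Gng8 cluster thus led for Vgf in both libraries, while the order of the P1-like and P3-like neurons changed between them.

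The inhibitor and the carboxypeptidase had other leading clusters. Pcsk1n was highest in the Calca Aldh1a2 cluster, at 4370 and 3271 CPM, and lowest in the P3-like neurons, at 2554 and 1610 CPM. Cpe was at 526.5 and 482.4 CPM in the P2-like neurons, whose marker Grp encodes gastrin-releasing peptide, and at 535.6 and 395.5 CPM in the Apoe Sostdc1 cluster. Pcsk1 was highest in the P3-like neurons, at 30.9 and 62.8 CPM, and its other values ran from 8.19 to 35.5 CPM.

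**Figure D3:**
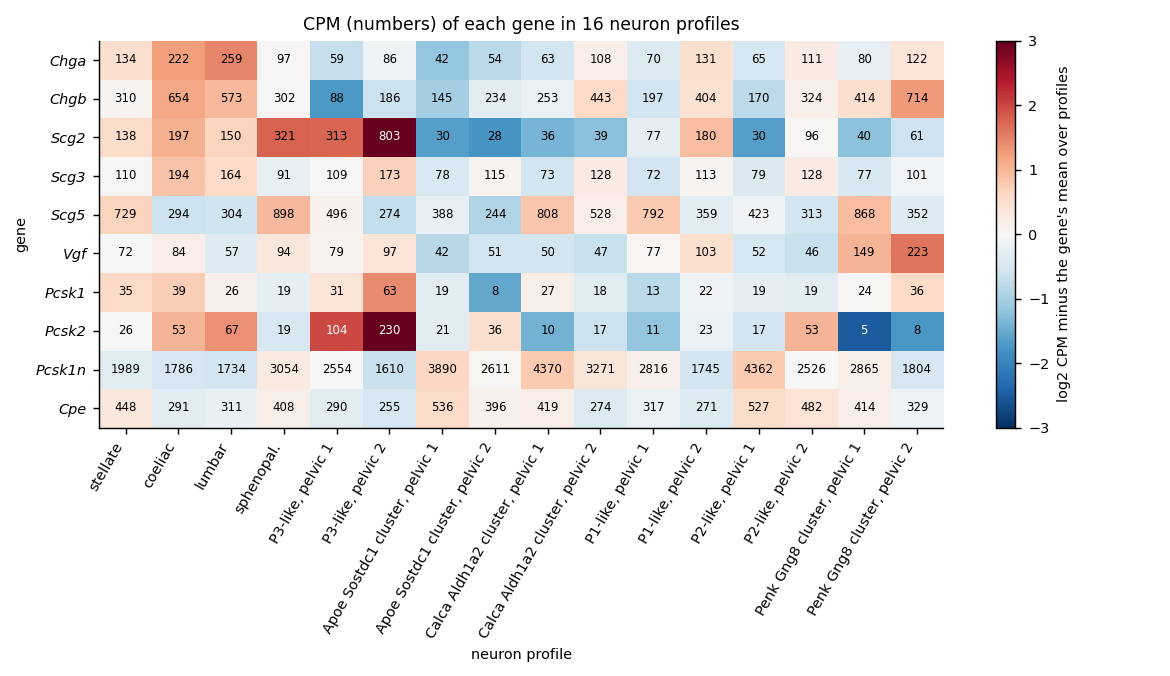
CPM of each gene (numbers) in the neurons of the 4 other ganglia and in each pelvic cluster of each pelvic library, coloured by log2 CPM minus the gene's mean over the 16 profiles. Scg2 and Pcsk2 are highest in the P3-like neurons of pelvic 2 (803 and 230 CPM) and Vgf in the Penk Gng8 cluster of pelvic 2 (223 CPM).

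The same contrast in sympathetic ganglia gave a different set of directions. Cholinergic neurons were few there, 20 in stellate and 48 in lumbar, with none in coeliac, so 4 sums of those 2 libraries entered the fit. Of the 10 genes, 9 passed an adjusted p under 0.05 in edgeR's quasi-likelihood test with Benjamini-Hochberg adjustment, 5 higher and 4 lower in noradrenergic neurons, where 19.9% of the 14788 genes tested passed, 10.6% higher and 9.34% lower. The median log2 difference was 0.34 over the 10 and 0.09 over all genes tested. Pcsk2, Pcsk1n and Cpe passed narrowly, with adjusted p of 0.0488, 0.0390 and 0.0451 in the edgeR test. Pcsk2 no longer passed under any of the 8 alternatives that keep the block, among them the one without shared barcodes, Cpe under 7 of them and Pcsk1n under 5. None of the 10 passed without the replicate block, where 277 of the 14788 genes tested passed. At an unadjusted p under 0.05 in that edgeR fit were 4 of the 10, beside 1836 of all genes tested. The fits with the block had the same infinite prior degrees of freedom.

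Chgb was higher in noradrenergic neurons of the sympathetic ganglia, the reverse of the pelvic direction. It stood at 317.8 CPM against 69.9 in cholinergic neurons of stellate and at 601.1 against 155.2 in lumbar. Both noradrenergic values lay above both cholinergic ones, a log2 difference of 2.13 (SE 0.17, edgeR's quasi-likelihood test with Benjamini-Hochberg adjusted p = 6.14e-34). Pcsk1 was also reversed, at 34.5 against 117.7 CPM in stellate and 25.6 against 48.0 in lumbar, a log2 difference of -1.21 (SE 0.17, edgeR adjusted p = 1.08e-10). Vgf was lower in noradrenergic neurons, at 68.2 against 252.5 CPM and 50.2 against 129.8 CPM, with classes that did not overlap and a log2 difference of -1.52 (SE 0.15, edgeR adjusted p = 2.40e-21). Vgf is also known as a gene induced by activity, and 7 of 10 immediate early genes tested were lower in the same noradrenergic sums, as 9 of 10 were in the pelvic ones, beside 9.34% and 11.5% of all genes tested. Their part in the Vgf values was not tested.

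Scg2, Scg3, Scg5, Pcsk2 and Pcsk1n kept the direction they had in the pelvic ganglion. For Scg2 the values were 138.5 against 55.2 CPM in stellate and 152.2 against 26.9 in lumbar, a log2 difference of 2.11 (SE 0.18, edgeR adjusted p = 1.58e-29). Scg3 was at 109.9 against 98.1 CPM and 167.6 against 82.9 CPM (0.75, SE 0.16, edgeR adjusted p = 4.96e-05). Scg5 was at 713.7 against 1310 CPM and 288.8 against 515.9 CPM (-0.76, SE 0.16, edgeR adjusted p = 3.22e-05). With cells thinned to 1 depth neither Scg3 nor Scg5 passed (edgeR adjusted p = 0.143 and 0.150). Pcsk2, which passed narrowly, was at 26.4 against 13.5 CPM in stellate and 66.7 against 55.4 in lumbar. Cpe, which also passed narrowly, was reversed from the pelvic direction, at 449.2 against 420.4 CPM and 314.3 against 221.8 CPM. Chga, at 134.1 against 127.5 CPM and 262.4 against 217.8 CPM, did not pass (0.28, SE 0.16, edgeR adjusted p = 0.224).

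Whether the contrast differed between pelvic and sympathetic ganglia was tested by an interaction over the 8 sums, a test added after the values above had been seen. The fit has 2 residual degrees of freedom and the same infinite prior ones, so its p-values also rest on the spread of the whole table. It passed for 7 of the 10 genes in edgeR's quasi-likelihood test with Benjamini-Hochberg adjustment, where 12.6% of the 14907 genes tested passed, 5.61% with the noradrenergic side relatively higher in the pelvic ganglion and 7.02% with it lower. The noradrenergic side was relatively lower in the pelvic ganglion for Chgb (log2 -3.54, SE 0.23), Cpe (-0.96, SE 0.22) and Chga (-0.62, SE 0.22). It was relatively higher there for Pcsk2 (2.61, SE 0.25), Pcsk1 (2.21, SE 0.24), Vgf (1.39, SE 0.22) and Scg2 (0.82, SE 0.25). Chga no longer passed when any 1 of the 4 libraries was left out, and Scg2 no longer passed without pelvic 1 or without stellate. With cells thinned to 1 depth, Chga, Scg2, Vgf and Cpe no longer passed, and by DESeq2 Chga and Scg2 did not. Scg3 (-0.22, SE 0.22), Scg5 (0.33, SE 0.22) and Pcsk1n (-0.03, SE 0.24) did not pass.

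Noradrenergic neurons themselves were then compared between the pelvic ganglion and the 3 sympathetic ganglia, over 5 sums with the round as a term. Pelvic noradrenergic neurons had more Pcsk2 and Scg2 and less Chga and Chgb. These 4 genes, 2 in each direction, passed in edgeR's quasi-likelihood test with Benjamini-Hochberg adjustment, where 7.13% of the 14273 genes tested passed, 3.59% higher and 3.53% lower. The median log2 difference of the 10 was 0.00, the same as over all genes tested. Pcsk2 stood at 105.3 and 230.9 CPM in pelvic 1 and 2, against 26.4 in stellate, 53.4 in coeliac and 66.7 in lumbar. Both pelvic values lay above all 3 sympathetic ones, a log2 difference of 1.94 (SE 0.13, edgeR adjusted p = 0.00267). For Scg2 the pelvic values of 336.1 and 806.7 CPM lay above 138.5 in stellate, 193.5 in coeliac and 152.2 in lumbar (1.81, SE 0.22, edgeR adjusted p = 0.0112).

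Chgb and Chga went the other way. Chgb was at 86.4 and 186.6 CPM in the pelvic libraries and at 317.8, 656.1 and 601.1 in stellate, coeliac and lumbar, with no overlap (log2 difference -1.82, SE 0.10, edgeR adjusted p = 0.0022). Chga was at 59.4 and 86.4 CPM against 134.1, 222.1 and 262.4 CPM, also with no overlap (-1.37, SE 0.14, edgeR adjusted p = 0.00743). For all 4 genes the directions within round 1 (pelvic 1 against stellate) and round 2 (pelvic 2 against coeliac and lumbar) follow from this lack of overlap. They are no separate check on the round. The calls rest on the 2 pelvic libraries. Calls were lost with either pelvic library left out, but such a fit leaves 1 pelvic sum and called few genes of any kind. Over all alternatives the log2 differences ran from -1.96 to -1.77 for Chgb and from -1.53 to -1.22 for Chga. They ran from 1.24 to 2.21 for Scg2 and from 1.77 to 2.05 for Pcsk2. Chga was lost without stellate, where 100 of the 13287 genes tested passed. The other 6 genes did not pass, with log2 differences from -0.44 (Cpe) to 0.48 (Pcsk1).

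The partners of the set were counted from lists chosen by function. Over all genes tested, 9.27% were higher and 11.5% lower in the pelvic contrast of classes, 10.6% and 9.34% in the sympathetic one, and 3.59% and 3.53% between noradrenergic neurons. Of other processing enzymes, 2 of 13 tested were higher and 2 lower in pelvic noradrenergic than cholinergic neurons. Higher were Qpct, which closes the N-terminal end of peptides as pyroglutamate (log2 difference 1.18), and the tyrosine sulphotransferase Tpst1 (0.84), and lower were Pam, which amidates peptides (-0.56), and the convertase Pcsk5 (-1.48). In the sympathetic ganglia 3 of 14 were higher and 2 lower, again with Qpct and Tpst1 higher and Pam lower (-1.12). Of dense-core vesicle genes, 5 of 20 were higher and 1 lower in pelvic noradrenergic neurons, led by the monoamine transporters Slc18a1 (3.97) and Slc18a2 (3.82) and by Cyb561 (2.31), which carries electrons into the vesicle for dopamine beta-hydroxylase. The lower one was Rab27b (-0.83). In the sympathetic ganglia 3 of 20 were higher and 4 lower, with Slc18a2 (3.67) the highest.

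Peptide precursors, the substrates of these enzymes, differed most. In the pelvic ganglion 2 of 14 tested were higher in noradrenergic neurons, Npy (log2 difference 1.77) and the scarce Pdyn, and 11 were lower, among them Vip (-6.47), Sst (-6.22), Calcb (-6.29) and Grp (-7.01). In the sympathetic ganglia 3 of 13 were higher, Gal (5.00), Npy (4.71) and Nmb, and 7 lower, among them Calca (-8.27) and Vip (-6.89). Between pelvic and sympathetic noradrenergic neurons 1 of 12 was higher in pelvic neurons, Npy (1.08), and 1 lower, Gal (-8.03). In the same comparison 1 of 14 other enzymes was lower (Rnpep), and of 20 vesicle genes Snap25 and Ptprn were higher and Cyb561 and Syt4 lower. The median log2 difference of the precursors was -4.71 in the pelvic and -1.48 in the sympathetic contrast, beside 0.00 and 0.09 over all genes tested.

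Against glial cells, neurons had higher CPM of 9 of the 10 genes, Scg3 being the exception. Sums of neurons and of glial cells of all 6 libraries were compared with the library as a replicate block. Those 9 were higher in neurons by edgeR's quasi-likelihood test with Benjamini-Hochberg adjustment, in a comparison where 37.8% of the 14027 genes tested were higher in neurons, 37.4% lower and 75.2% either. Log2 differences ran from 2.17 (SE 0.19) for Cpe and 3.32 (SE 0.46) for Chga to 4.08 (SE 0.43) for Pcsk1n, with a median over the 10 of 3.46 against 0.01 over all genes tested. The dense-core vesicle genes had 19 of 20 higher in neurons and none lower, whereas of the other processing enzymes 1 of 13 was higher and 5 lower, beside the 37.8% and 37.4% of all genes. Free RNA from neurons can reach every droplet, which would make these differences smaller than those between the cells. Median UMIs were 26658 to 108546 in neurons and 3522 to 12151 in glial cells of a library.

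Scg3 stood at similar CPM in glial cells and in neurons. Neurons, with more UMIs per cell, still held 63.8% (coeliac) to 86.1% (lumbar) of its UMIs in a library. Glial cells held 9.98% (stellate) to 31.9% (coeliac). Its glial level was 90.4 CPM in stellate, 168.3 in coeliac, 179.7 in lumbar, 108.6 in sphenopalatine, 75.7 in pelvic 1 and 141.8 in pelvic 2. Glial values were above the neuronal ones in lumbar, sphenopalatine and pelvic 2 and below them in the other 3 libraries, and the log2 difference was 0.09 (SE 0.10, edgeR adjusted p = 0.460). To set this beside free RNA, each gene's UMIs outside neurons were divided by those that its neuronal ratio to 5 neuronal genes (Prph, Snap25, Elavl3, Elavl4 and Uchl1) would give, so that 1 marks neuronal RNA alone. For Scg3 in glial cells the ratio was 4.12 in stellate, 15.6 in coeliac, 22.0 in lumbar, 9.20 in sphenopalatine, 8.57 in pelvic 1 and 35.3 in pelvic 2, and all 6 intervals lay above 1. Thinned to 2000 UMIs a cell, Scg3 was found in 13.2% to 28.7% of glial cells per library and in 15.8% to 35.02% of neurons. Fibroblast-like cells gave 0.242% to 3.43% in 5 libraries, and in coeliac no UMI was left in 231 thinned cells, which held 12 before thinning. The unthinned shares in glial cells were 28.4% to 80.3%.

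Cpe was above the level of free neuronal RNA in glial and fibroblast-like cells of all 6 libraries. In fibroblast-like cells it stood at 430.8 to 933.1 CPM, above the neuronal level of the same library in all 6, and in mural-like cells at 188.0 to 477.9 CPM. The ratio to free neuronal RNA was 17.8 to 145.3 in fibroblast-like and 1.68 to 6.97 in glial cells. Pcsk1n, the member with the most UMIs in neurons, had ratios of 0.658 to 1.05 in glial cells and 0.577 to 0.900 in fibroblast-like cells. A Pcsk1n UMI was found in 34.5% to 66.2% of glial cells, and its level there was near the one that neuronal RNA alone would give. For Chga the glial ratios were 1.12 in stellate, 1.66 in coeliac, 0.718 in lumbar, 1.09 in sphenopalatine, 2.56 in pelvic 1 and 1.23 in pelvic 2, and the intervals lay above 1 in stellate, coeliac and pelvic 1. Chgb had intervals above 1 in the same 3 libraries (1.27, 1.61 and 2.34) and ratios of 0.714 to 0.974 in the other 3. These ratios count free RNA from neurons only. The Cfap61 Ndufa4l2 cluster described below held 1.28% of the Chga UMIs in stellate, 16.1% in coeliac and 44.6% in pelvic 1. For Chgb it held 0.768%, 13.8% and 27.3% in the same order. The part of free RNA from that cluster, or of free Cpe RNA from fibroblast-like cells, was not tested. Of the smaller counts, Pcsk1 was at 29.2 times the neuronal ratio in lumbar macrophage-like cells (10 UMIs, 95% Poisson interval 14.0 to 53.7) and Pcsk2 at 3.84 times in pelvic 2 fibroblast-like cells (28 UMIs, 2.55 to 5.55), values named after they were seen.

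**Figure D4:**
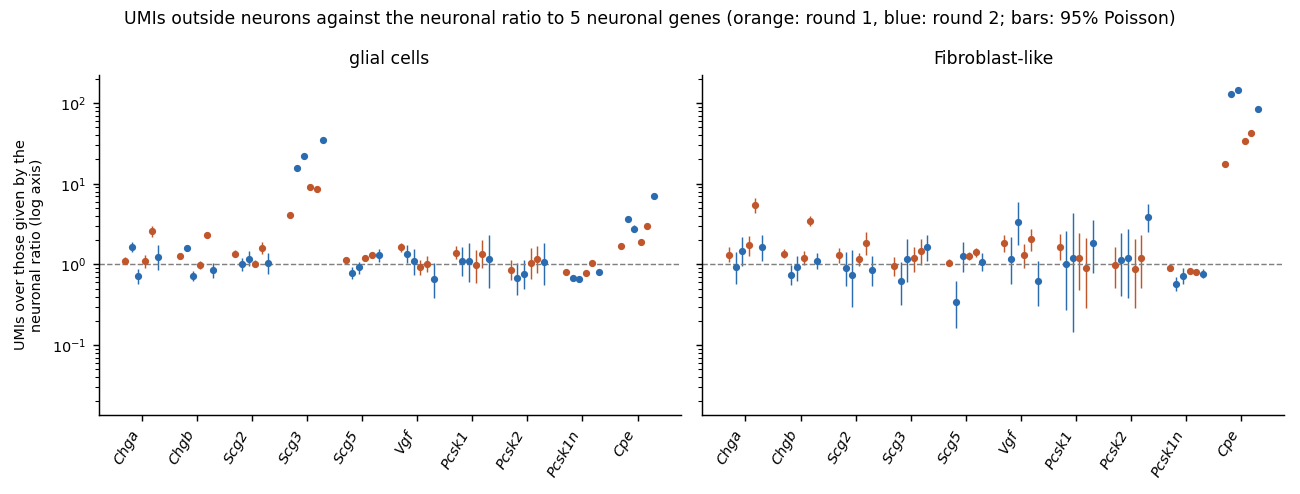
UMIs of each gene in glial cells (left) and fibroblast-like cells (right) over those that the neuronal ratio to 5 neuronal genes would give, on a log axis with 1 point per library, coloured by round, and 95% Poisson bars. Scg3 is above 1 in glial cells of all 6 libraries (4.12 to 35.3) and Cpe in fibroblast-like cells (17.8 to 145.3).

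The highest levels of the granins Chga, Chgb and Scg2 lay outside the neurons. A cluster of 196 cells is called here by its leading genes Cfap61 and Ndufa4l2. Without 1 cell of pelvic 1 whose neuronal score passed the threshold, it held 140 cells in pelvic 1, 30 in pelvic 2, 11 in stellate, 11 in coeliac, 3 in lumbar and none in sphenopalatine. It was singled out after its values were seen, because Chga was among its 10 leading genes, and is described without a test. The 10 genes were not used to form it, but its high Chga is part of why it was chosen. It held Th at 659.4 to 1446 CPM and Dbh at 1170 to 1460 CPM in the 4 libraries with over 10 such cells. Of the markers fixed for chromaffin or small intensely fluorescent cells, Slc18a1 (247.8 to 292.3 CPM) and Cox8b (4.68 to 85.9 CPM) were present, while Pnmt, which makes adrenaline, was at 0 in 3 of the 4 libraries and at 1.07 CPM in pelvic 1. With fewer markers than a name requires, it was given none. The cells had median UMIs of 5316 to 18928 per library, below those of neurons.

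Chga stood in this cluster at 2292 CPM in stellate, 3961 in coeliac, 2641 in pelvic 1 and 4103 in pelvic 2. Chgb reached 3169, 9297, 3719 and 9353 CPM in the same order, and Scg2 461.5, 1459, 397.2 and 1011 CPM. Each value of the 3 granins lay above that of the pooled neurons of its library. For Scg2 in the pelvic libraries the noradrenergic neurons alone came closer, at 336.1 CPM in pelvic 1 and 806.7 in pelvic 2. The pooled neurons held 82.4 and 174.4 CPM there. In pelvic 1 the 140 cells held 2460 of the library's 5514 Chga UMIs, more than its 892 neurons with 2426. In pelvic 2 the 30 cells held 2276 of 6905, and in coeliac 11 cells held 847 of 5270. The convertases had few counts there. Pcsk1 was at 15.4 CPM in stellate, 14.0 in coeliac, 11.8 in pelvic 1 and 34.3 in pelvic 2, from 1, 3, 11 and 19 UMIs. Pcsk2 was at 15.4, 46.8, 14.0 and 32.4 CPM in the same order, from 1, 10, 13 and 18 UMIs. The 95% Poisson intervals held the neuronal level of the library for both genes in stellate, coeliac and pelvic 2. In pelvic 1 the intervals of Pcsk2 (7.43 to 23.9 CPM) and Pcsk1 (5.89 to 21.1 CPM) ended just below the 25.6 and 21.2 CPM of its neurons. Cpe was lower than in neurons of the library in all 4, at 246.1, 149.6, 123.5 and 122.6 CPM. Vgf was higher than in the pooled neurons of the library, at 199.98, 102.9, 194.3 and 187.5 CPM, from 13, 22, 181 and 104 UMIs. The coeliac value was near the 84.1 CPM of its neurons. In the pelvic libraries the Penk Gng8 neurons held 148.9 CPM of Vgf in pelvic 1 and 223.0 in pelvic 2.

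**Figure D5:**
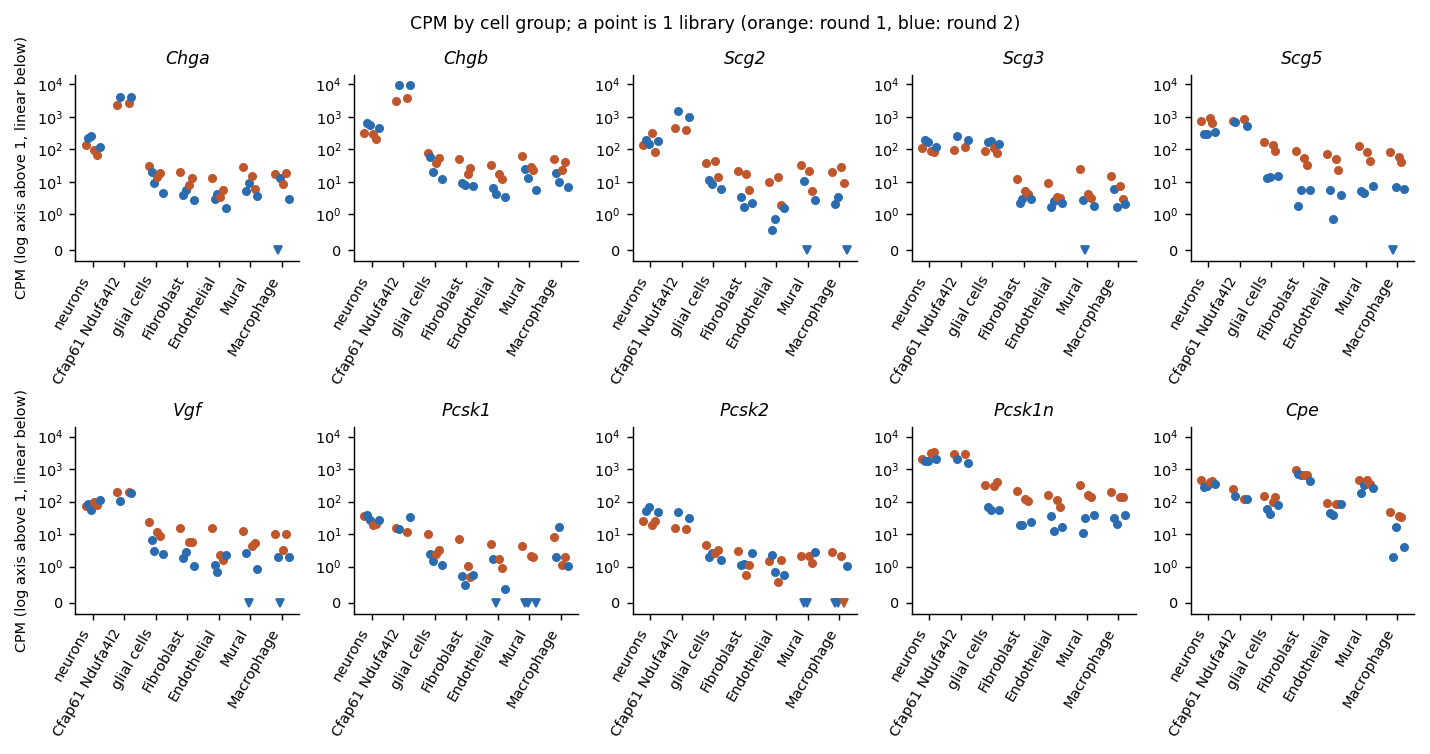
CPM of each gene in 7 cell groups, 1 point per library, coloured by round, on an axis that is logarithmic above 1 and linear below, with triangles at 0. Chga and Chgb are highest in the Cfap61 Ndufa4l2 cluster (2292 to 4103 and 3169 to 9353 CPM), Scg3 is level between neurons and glial cells, and Cpe is highest in fibroblast-like cells.

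Genes with the profile most like each member were taken from 4656 genes over the 16 neuron profiles, by Pearson correlation of log2(CPM + 1). The profiles share libraries and depth, so these are descriptions. For the 6 members whose CPM ranged over 4-fold, Pcsk2 spanned 49.9-fold and was closest to Sobp (0.903), Cygb and Gria4, and Scg2 spanned 29.1-fold and was closest to Sybu (0.906), Lrp1b and Plppr4. Chgb (8.10-fold) was closest to Kif5b (0.862), Scn2a and Ndrg2. Pcsk1 (7.66-fold) was closest to Tsn (0.772), Hsd17b12 and B3gnt2, Chga (6.11-fold) to Rtn1 (0.918), Btbd10 and Cfdp1, and Vgf (5.35-fold) to Cited2 (0.891), Cntn3 and Tyro3. No member was among the 3 closest genes of another. Scg5, Pcsk1n, Scg3 and Cpe spanned 3.67-fold, 2.71-fold, 2.69-fold and 2.10-fold.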

How the data were processed

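UMI counts per gene and droplet were deposited by the authors as 1 matrix per library. Per the labels they are raw counts from Cell Ranger 6.0.1 on mm10, from 5 ganglia of pups at postnatal day 5. The members of the set, the lists and the comparisons were chosen with earlier results of these data known. The study's limits on droplets were applied (more than 1500 genes but fewer than 11000, mitochondrial share below 15%), which left 21442 cells, the number the study states in 3 libraries and slightly fewer in the others. sctransform 0.4.2 values defined neurons (mean of Stmn2, Stmn3, Gap43 and Tubb3 above 3, the mean of a glial list that includes Ttyh1, Fabp7, Cryab and Mal below 1.15) and glial cells. Neurons were classed by depth-scaled log2 counts of Th against Chat, Slc18a3 and Slc5a7 with a margin of 1. Clusters came from a graph of nearest neighbours split by the Louvain method in python-igraph 0.11.9 (3000 variable genes, 30 components, resolution 0.3). The 10 genes and the pathway lists were left out of the variable genes. A name needed at least 3 detected and raised markers. It also needed that no other marker list had more genes among the cluster's 10 leading genes. The driver of the Cre transgene and some marker genes are not reported here. Doublets were not removed in the main values. An alternative left out the 5% of cells with the highest doublet score (scrublet in scanpy 1.11.5).

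Raw counts were summed per library and class (at least 20 cells) and fitted over all genes in R 4.3.3 with edgeR 4.0.16 (TMM, filterByExpr, quasi-likelihood test, Benjamini-Hochberg adjustment, called under 0.05, two-sided). The library was the replicate block where both classes came from 1 suspension. The deviations of paired sums from their class means correlated at 0.713 (pelvic), 0.578 (sympathetic) and 0.400 to 0.628 (neurons and glial cells). On simulated counts, the fit recovered 74% of genes changed by log2 1 and 96% of those changed by log2 2 in the pelvic contrast, 40% and 88% in the sympathetic contrast, 70% and 98% between pelvic and sympathetic noradrenergic neurons, 99% and 100.0% between neurons and glial cells, and 15% and 83% for the interaction. The simulated counts had a fixed dispersion and no library effect, and only genes with high counts were changed. The recovered shares are therefore not the power of the fits on the real counts. The libraries share no stated animals. Between neurons and glial cells, p-values measure how the class difference varied between libraries. In the pelvic, sympathetic and interaction fits they rest on the spread of the whole table. Between pelvic and sympathetic noradrenergic neurons, the spread includes differences between the sympathetic ganglia. Genes named besides the 10 are at most 4 per list and direction by smallest p, the fixed markers, and the 3 genes with the closest profile. Alternatives were DESeq2 1.42.0, RLE size factors, no filter, no glial exclusion, thinned cells, margin 0, other blocks and libraries left out in turn.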

Additional observations from a re-analysis of the deposited data

Results flagged for a closer look

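For 7 of the 10 genes, the difference between noradrenergic and cholinergic neurons was not the same in the pelvic ganglion as in the sympathetic ganglia (stellate and lumbar), by edgeR's interaction test over 8 sums with Benjamini-Hochberg adjustment over 14907 genes. Of all genes tested, 12.6% passed. The test was added after the values of the classes had been seen. Values are log2 differences, pelvic minus sympathetic. Chgb gave -3.54 (adjusted p = 2.19e-50 in edgeR), being lower in noradrenergic neurons of both pelvic libraries and higher in those of stellate and lumbar. Pcsk2 gave 2.61 (adjusted p = 9.43e-23 in edgeR), its differences being 3.09 in the pelvic and 0.51 in the sympathetic ganglia. For Pcsk1 the value was 2.21 (adjusted p = 1.44e-18 in edgeR), being higher in noradrenergic neurons of both pelvic libraries and lower in those of stellate and lumbar. Vgf gave 1.39 (adjusted p = 3.74e-09 in edgeR) and Cpe -0.96 (adjusted p = 0.000195 in edgeR). Scg2 gave 0.82 (adjusted p = 0.00926 in edgeR) and Chga -0.62 (adjusted p = 0.042 in edgeR). Chga lost its call without any 1 of the 4 libraries and Scg2 without pelvic 1 or stellate. With cells thinned to 1 depth the calls of Vgf, Cpe, Scg2 and Chga were lost, with adjusted p of 0.312, 0.143, 0.901 and 0.932 in edgeR. The p-values rest on the spread of the whole table, since the prior degrees of freedom were infinite. The sympathetic side rests on 20 and 48 cholinergic neurons, and the stellate ones still held Th at 128.7 CPM. The part of that in these values was not tested.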

How the results depend on the processing

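Neurons against glial cells kept 9 genes called under every alternative run, with or without the replicate block and with any 1 library left out. In the pelvic contrast of noradrenergic and cholinergic neurons, 8 genes were called and 6 to 8 under the alternatives that keep the replicate block. Without the block 2 were. In the sympathetic contrast 9 were called, 4 with cells thinned to 1 depth, 6 to 8 under the other alternatives that keep the block, and 0 without the replicate block. Between pelvic and sympathetic noradrenergic neurons 4 were called, 7 with no filter on low counts and 5 by DESeq2. With 1 sympathetic library left out, 3 to 5 were called. Calls were lost with either pelvic library left out, which leaves 1 pelvic sum. Without the round term 0 were called. At an unadjusted p under 0.05 in that edgeR fit were 4 of the 10, beside 1710 of the 14273 genes tested. For the interaction 7 were called, 3 with thinned cells and 5 to 6 with 1 library left out. Over all genes tested, the main fit called 75.2% between neurons and glial cells. The share was 20.8% in the pelvic contrast, 19.9% in the sympathetic one, 7.13% between noradrenergic neurons and 12.6% for the interaction. Leaving out a library in the pelvic or the sympathetic contrast leaves no residual degrees of freedom, so each library's own ratio stands in its place. No gene changed direction where it was called. Of 580 tested values of single genes under an alternative, 511 stayed on the same side of the threshold, 63 lost a call and 6 gained one. Of 80 values without a test, 12 moved by more than their spread. That spread was the SD of the 2 library ratios themselves, or of the pelvic 1 and pelvic 2 levels. It is therefore wide, and cannot show that the other values were stable. The cause of the changes was not tested.

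Counts over all genes also moved. With thinned cells fewer genes were tested, 8239 in place of 14146 in the pelvic contrast and 9988 in place of 14788 in the sympathetic one. They were 2937 in the pelvic contrast, against 1524 by DESeq2, 616 with thinned cells and 631 without the replicate block. They were 2950 in the sympathetic contrast, against 1421, 452 and 277. Between noradrenergic neurons they were 1017, against 1504 by DESeq2, 287 with thinned cells, 2572 with no filter, 184 without the round term and 10 to 1596 with 1 library left out. For the interaction they were 1883, against 1052 by DESeq2, 226 with thinned cells, 1200 at margin 0 and 964 to 1677 with 1 library left out.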
